A study of Mus musculus with 75 samples.

Results

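Paclitaxel and 5-fluorouracil were compared directly in the gastrocnemius muscle of mice bearing C26 tumours. The libraries were chosen by their titles, which name the tumour and the drug, and 29 of the 75 samples of the series met the rule. Paclitaxel had been given to 7 females and 6 males, and 5-fluorouracil to 8 females and 8 males. All 29 were Balb/c mice injected on both sides with C26 cells, which come from a mouse colon carcinoma and form tumours that cause muscle wasting. From day 12 each received its drug at 75% of the maximum tolerated dose, in 2 cycles with 2 injections per week, and the muscle was taken at day 25. No tumour-free mouse received a drug among these samples, so both arms carry the tumour. Reference levels, shown with no test, come from 15 C26 mice (7 females, 8 males) and 15 mice injected with phosphate-buffered saline (PBS; 7 females, 8 males), all of which received saline. Values are the authors' deposited log2 expression values, on which a difference of 1 is a doubling, and the sexes were pooled with sex as a blocking factor.

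5-Fluorouracil, an analogue of uracil, inhibits thymidylate synthase and is built into RNA and DNA, while paclitaxel binds beta-tubulin and stabilises microtubules. Both slow dividing cells, including the marrow precursors that supply neutrophils and monocytes. In mice with C26 tumours, circulating interleukin-6 is known to act through the transcription factor STAT3 in muscle, where acute-phase proteins are then made, and ubiquitin ligases of the muscle fibre take part in the loss of protein. Neutrophils and macrophages reach muscle through the venules and are recognised in whole-tissue RNA by genes that muscle fibres express little or not at all.

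Among the genes higher with paclitaxel were Stat3 itself, its feedback inhibitor Socs3, and Sbno2, a transcriptional coregulator known as a STAT3 target. Cxcl14, a chemokine of fibroblasts, was higher too. STAT proteins bind the palindrome TTCNNNGAA, and TTCCNGGAA is the tighter form contained in it. Both read the same on either strand, so a match counts once for both strands. Promoter windows of 250 bases before the start were taken from RefSeq (GRCm38.p6, not the build of the deposited table) for the 3 of these 4 genes that hold a match, to show where its letters lie. The Stat3 window holds none. Capitals mark TTCNNNGAA, and each sequence reads 5′ to 3′ on the gene's strand.
Socs3: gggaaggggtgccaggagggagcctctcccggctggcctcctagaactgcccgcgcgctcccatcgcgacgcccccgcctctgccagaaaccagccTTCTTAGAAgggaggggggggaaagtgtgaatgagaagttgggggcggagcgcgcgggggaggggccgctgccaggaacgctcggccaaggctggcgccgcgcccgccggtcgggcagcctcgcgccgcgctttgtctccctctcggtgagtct
Sbno2: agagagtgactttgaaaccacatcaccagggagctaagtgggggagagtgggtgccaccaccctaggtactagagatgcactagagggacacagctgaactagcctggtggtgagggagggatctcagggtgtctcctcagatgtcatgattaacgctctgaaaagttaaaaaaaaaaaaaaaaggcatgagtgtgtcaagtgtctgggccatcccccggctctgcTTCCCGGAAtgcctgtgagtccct
Cxcl14: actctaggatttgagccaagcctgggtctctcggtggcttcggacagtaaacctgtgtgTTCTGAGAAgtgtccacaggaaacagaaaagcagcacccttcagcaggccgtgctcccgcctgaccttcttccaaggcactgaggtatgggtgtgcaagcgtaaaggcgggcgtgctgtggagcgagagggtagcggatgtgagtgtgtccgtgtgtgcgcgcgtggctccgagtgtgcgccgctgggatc
The Socs3 window is chr11:117969367-117969616 on the minus strand, with the match TTCTTAGAA from 154 to 146 bases before the start. The Sbno2 window is chr10:80101188-80101437 on the minus strand, for 1 of its 2 annotated starts with a match, and holds the tighter form TTCCCGGAA from 24 to 16 bases before the start. The Cxcl14 window is chr13:56296552-56296801 on the minus strand, with TTCTGAGAA from 191 to 183 bases before the start. Of the 31 genes called higher with paclitaxel that matched a promoter in the table, 5 (16.1%) held TTCNNNGAA, namely Cxcl14, Sbno2, Scgb3a1, Socs3 and Themis2. The share was 8.13% over all 27025 genes with a promoter and 7.24% over the 10418 of them in the deposited table. TTCCNGGAA was held by 2 of the 31 (6.45%), against 1.29% of the genes of the deposited table. Sbno2 and Cxcl14 lie outside the list of interleukin-6, STAT3 and acute-phase genes used below. Of the 29 genes of that list with a promoter, 5 (17.2%) held TTCNNNGAA, namely Itih4, Serpina3g, Serpina3i, Socs3 and Steap4. Only Socs3 of these 5 was called, and TTCCNGGAA lay in Steap4 alone (3.45%). The called members Serpina3m, Serpina3n and Lbp had no match or no window. A match of letters is a description of the window and was not tested for binding.

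Estimated counts per library, solved from the deposited values, ran from 15.3 to 23.5 M with paclitaxel (median 21.4 M) and from 19.4 to 32.0 M with 5-fluorouracil (median 23.1 M). The depth was on average 3.53 M lower with paclitaxel within a sex (permutation test within sex, two-sided, p = 0.0105, adjusted p = 0.0421 over 4 library measures). Fast-fibre markers (Myh4, Myh1, Acta1, Ckm and Mylpf) were at high levels in every library, as the labelled tissue has them, and their summed level overlapped between the drugs. The libraries also differed in how strongly their values followed transcript GC content. That slope exceeded 0.1 in 12 of the 29 libraries, 2 female and 4 male with each drug, and its mean differed by 0.10 between the drugs (permutation test within sex, p = 0.261). A single batch value is given for all samples in the labels, which do not say whether libraries were prepared together.

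Paclitaxel and 5-fluorouracil muscle differed at 44 of 13856 genes, and in nearly all of them the paclitaxel libraries were higher. With limma and an adjusted p under 0.05 as the call, 43 genes (0.31%) were higher with paclitaxel and 1 (0.00722%) was lower. The median difference over all genes was -0.01. At an unadjusted p under 0.05, 812 genes (5.86%) were higher and 550 (3.97%) lower. Together the calls were 0.318% of genes. Differences of the 43 higher genes ran from 0.30 to 2.48, with a median of 0.94, and in each of the 43 at least 11 of the 13 paclitaxel libraries lay above the 5-fluorouracil mean of their own sex. None of the 44 separated the drugs completely: in every one the highest library of one arm overlapped the lowest of the other. All 44 kept their sign in every setting and left-out library that tested them, but the number called did not hold. With log2 depth as a covariate, a setting added after the depths had been seen, 6 (0.0433%) were called (Ackr1, C5ar1, Il17ra, Siglece, Sting1 and Wfdc17). Without the 12 libraries above a GC slope of 0.1, 11 genes (0.0794%) were called, of which Ace and Nfam1 were among the 44, whereas with the slope as a covariate 109 (0.787%) were called and all 44 remained. The fit without those libraries lacks 4 of the 6 male paclitaxel libraries, and the part of its smaller size was not tested.

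Single libraries also moved the count. It was 11, 14, 26 and 17 without female paclitaxel replicates 2, 3, 5 and 7, and 22, 18 and 13 without male paclitaxel replicates 1, 3 and 5. It was 18, 20, 21 and 19 without female 5-fluorouracil replicates 3, 4, 5 and 8, and 23, 19, 23 and 23 without male 5-fluorouracil replicates 1, 2, 3 and 6. It was 78 without female paclitaxel replicate 4, 81 and 125 without male paclitaxel replicates 2 and 4, and 73 and 107 without male 5-fluorouracil replicates 5 and 7. The genes called whichever single library was left out were Ackr1, Atp9a, C5ar1, Csf3r, Cxcl14, Il17ra, Nfam1, Siglece, Stat3, Sting1 and Wfdc17.

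**Figure D1:**
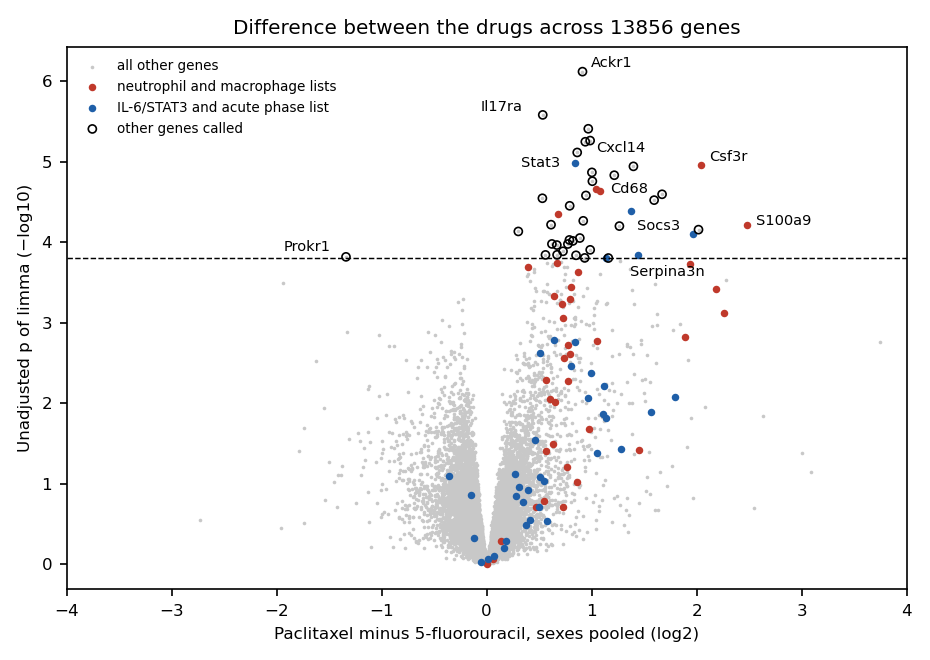
Each point is a gene, with the paclitaxel minus 5-fluorouracil difference (log2, sexes pooled) on the horizontal axis and the unadjusted p of limma (−log10) on the vertical axis. Red points are the neutrophil and macrophage lists, blue points the IL-6/STAT3 and acute-phase list, and open circles the other called genes. The dashed line is the smallest value among called genes. The 43 genes called higher lie at the upper right, and Prokr1 is the single gene called lower.

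Genes of neutrophils had the largest median difference of the 42 lists examined. All 12 measured members of the 23 listed had a positive difference, at a median of 1.67 against -0.01 over all genes; 3 were called (Csf3r, S100a9 and Lyz2) and 9 had an unadjusted p under 0.05. Csf3r, the receptor for granulocyte colony-stimulating factor, had log2 values of 0.73 (lowest), 1.89 (median) and 3.24 (highest) with paclitaxel and -3.04, 0.09 and 1.94 with 5-fluorouracil. The arms overlapped, but 11 of the 16 5-fluorouracil libraries lay below every paclitaxel library. The difference was 2.04 ± 0.39 (SE; 4.12-fold on the linear scale, 95% confidence interval 2.38 to 7.14; limma, adjusted p = 0.0176).

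S100a9, a subunit of the neutrophil protein calprotectin, ran from 0.57 through a median of 1.81 to 3.50 with paclitaxel and from -6.01 through -0.41 to 2.51 with 5-fluorouracil, where 1 library had no count. Of the 16 5-fluorouracil libraries, 12 lay below every paclitaxel library, although only 1 paclitaxel library lay above every 5-fluorouracil one. The difference was 2.48 ± 0.53 (adjusted p = 0.0349 by limma). Lyz2, the lysozyme of neutrophils and macrophages, differed by 0.68 ± 0.14 (adjusted p = 0.0291). Of the other markers, S100a8, the partner of S100a9, differed by 2.26 (adjusted p = 0.0942), Mmp8, a granule collagenase, by 1.89 (0.132), and Cxcr2, the receptor that draws neutrophils to chemokines, by 2.18 (0.0703); these did not pass limma's adjusted threshold. Il1b, which encodes the cytokine interleukin-1 beta, missed it narrowly (1.94, adjusted p = 0.051). The summed level of the 12 markers on the back-transformed scale was 46.3 to 103 with paclitaxel (median 68.1) and 24.4 to 60.7 with 5-fluorouracil (median 37.6). C26 saline libraries had a median of 76.9 and PBS libraries 34.9. Members of high expression weigh most in such a sum. Lyz2, shared with macrophages, had a mean log2 value of at least 3. The means of Csf3r, S100a9, S100a8, Mmp8 and Cxcr2 lay below 1. No measured marker was without counts in all libraries of an arm.

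All 25 measured macrophage genes of the 26 listed had a positive difference, at a median of 0.72; 2 were called (Tyrobp and Cd68) and 20 had an unadjusted p under 0.05. Tyrobp, the signalling adaptor DAP12, ran from 1.01 through 1.85 to 2.59 with paclitaxel and from -0.47 through 0.74 to 1.91 with 5-fluorouracil. Of the 16 5-fluorouracil libraries, 11 lay below every paclitaxel library. The difference was 1.05 ± 0.21 (2.06-fold, 95% confidence interval 1.54 to 2.77; limma, adjusted p = 0.0228).

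Cd68, a lysosomal protein of macrophages, ran from 1.96 through 2.78 to 4.10 with paclitaxel and from 0.34 through 1.70 to 2.61 with 5-fluorouracil, and all 13 paclitaxel libraries lay above the 5-fluorouracil mean of their sex. It differed by 1.08 ± 0.21 (adjusted p = 0.0228 by limma). The complement genes C1qa and C1qb, made by tissue macrophages, differed by 0.80 and 0.79 (adjusted p = 0.0694 and 0.0798), Csf1r, the receptor for macrophage colony-stimulating factor, by 0.56 (0.231), and Mrc1, the mannose receptor, by 0.64 (0.453), none passing the threshold. The sum of the 25 markers was 176 to 422 with paclitaxel (median 253) and 97.6 to 315 with 5-fluorouracil (median 168), so the ranges overlapped widely. Medians were 229 in C26 saline and 144 in PBS libraries. In whole muscle, fewer cells of a type and less RNA per cell cannot be told apart.

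Blood in the tissue was read from globins, whose summed level was 127 to 4508 with paclitaxel (median 673) and 94.5 to 2402 with 5-fluorouracil (median 617). The part of blood in the neutrophil values was not tested. Without the 12 libraries above a GC slope of 0.1 the neutrophil median was 1.58 with 0 called and the macrophage median 0.93 with 1 called. With depth as a covariate the medians were 1.73 and 0.71 with 0 called in either list, and a fit that included the GC slope called 6 and 9 members.

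Further called genes outside the fixed lists are known from myeloid cells. Spi1 encodes PU.1, the transcription factor that myeloid cells depend on. It ran from 0.81 through 1.53 to 2.09 with paclitaxel and from -0.72 through 0.59 to 1.15 with 5-fluorouracil. All 13 paclitaxel libraries lay above the mean of their sex's 5-fluorouracil libraries, and the difference was 0.95 ± 0.19 (1.93-fold, 95% confidence interval 1.47 to 2.52; limma, adjusted p = 0.0228). C5ar1, the receptor for the complement fragment C5a, ran from 0.48 through 1.46 to 2.22 with paclitaxel and from -0.45 through 0.44 to 1.11 with 5-fluorouracil. Here 9 of the 13 paclitaxel libraries lay above every 5-fluorouracil library, and the difference was 0.99 ± 0.18 (adjusted p = 0.0157).

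The other genes of this kind were named after their values had been seen, apart from those with the smallest p values. Il17ra, a receptor chain for interleukin-17 that is not particular to myeloid cells, differed by 0.53 ± 0.09 (adjusted p = 0.0157 by limma). Nfam1, an adaptor with an activation motif, differed by 0.86 ± 0.16 (limma, adjusted p = 0.0176). Wfdc17, a small secreted protein of activated macrophages, differed by 1.40 ± 0.27 (limma, adjusted p = 0.0176). Selplg, the ligand by which leukocytes roll on P-selectin, differed by 1.01, Siglece, an inhibitory sialic acid receptor, by 1.22, and Csf2rb, the shared receptor chain for interleukin-3, interleukin-5 and GM-CSF, by 0.99. Plac8 (1.60), Alox5ap (0.67), which presents arachidonic acid to 5-lipoxygenase, Ncf4 (0.93), a subunit of the phagocyte oxidase, Cd37 (0.85), a leukocyte tetraspanin, and Themis2 (0.67) were also called. Fcna, which encodes the lectin ficolin A, differed by 1.26 ± 0.27 (adjusted p = 0.0349). Pirb (0.82) and Pira1 (1.16), paired immunoglobulin-like receptors, belong to a family of near-identical copies, so their separate values are uncertain. Tmem176a (0.89) and Tmem176b (0.73), a neighbouring pair of membrane proteins of dendritic cells and macrophages, completed the set.

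**Figure D2:**
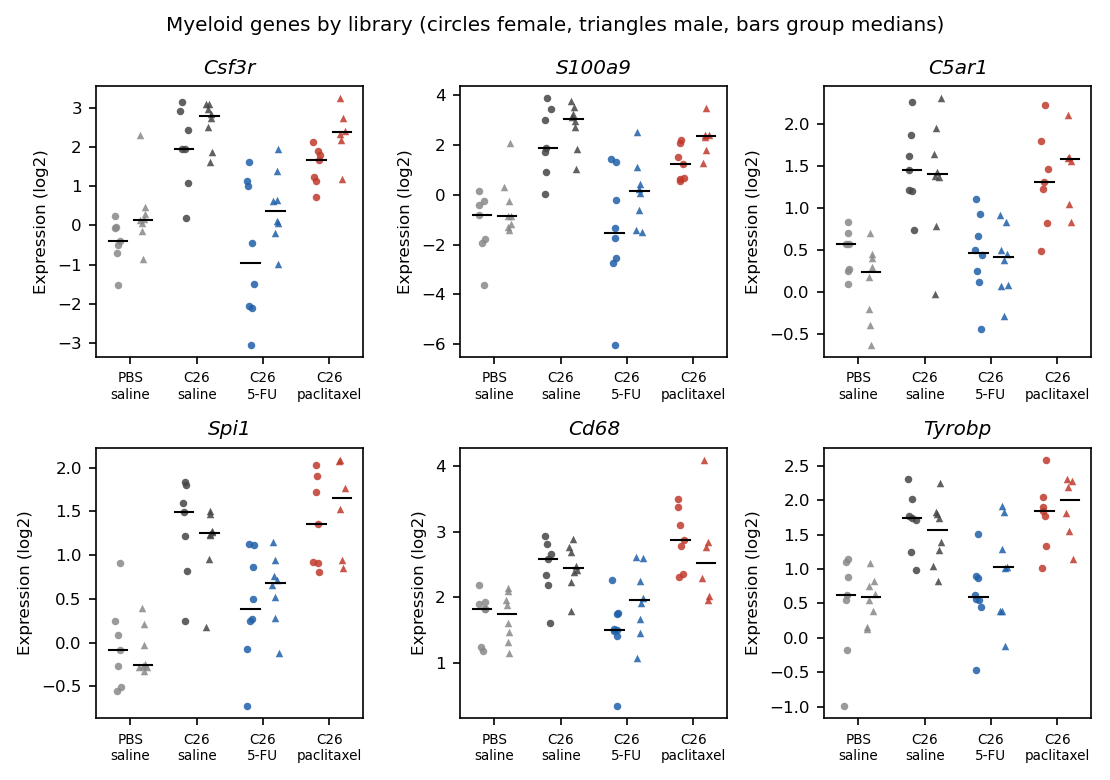
Each panel gives the deposited log2 expression of a myeloid gene in every library of PBS saline, C26 saline, C26 5-fluorouracil (5-FU) and C26 paclitaxel mice, with females as circles, males as triangles and a bar at each group's median. For Csf3r, the paclitaxel libraries lie between 0.73 and 3.24 and the 5-fluorouracil libraries between -3.04 and 1.94.

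Lymphocyte markers were few: 2 of the 21 T and NK cell genes and 5 of the 18 B and plasma cell genes were in the table. None was called, which with 0.318% of all genes called says nothing about them as a group. Ighm, the immunoglobulin mu heavy chain of B cells, ran from -0.33 through 1.20 to 6.21 with paclitaxel and from -0.13 through 3.47 to 5.88 with 5-fluorouracil, and the arms overlapped over nearly their whole range. The difference was -1.63 (95% confidence interval -2.66 to -0.60; limma, adjusted p = 0.176). Its median was 5.42 in PBS and 0.74 in C26 saline libraries.

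Of the 38 measured genes of interleukin-6 and STAT3 signalling and the acute phase, 5 were higher with paclitaxel at the adjusted threshold and the others were not called. Of the 38, 34 had a positive difference, at a median of 0.53. The called genes were Stat3, Socs3, Serpina3m, Serpina3n and Lbp, and 19 had an unadjusted p under 0.05, all of them higher. Stat3 ran from 6.25 through 7.23 to 8.02 with paclitaxel and from 5.95 through 6.31 to 6.98 with 5-fluorouracil. Of the 13 paclitaxel libraries, 8 lay above every 5-fluorouracil library and 1 male library lay low among them. The difference was 0.84 ± 0.16 (1.80-fold, 95% confidence interval 1.43 to 2.25; limma, adjusted p = 0.0176), between reference medians of 7.68 in C26 saline and 5.93 in PBS libraries.

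Socs3, which binds the interleukin-6 receptor chain gp130 and shuts the signal off, ran from 1.26 through 3.79 to 4.54 with paclitaxel and from 0.67 through 2.09 to 3.47 with 5-fluorouracil. Again 8 paclitaxel libraries lay above every 5-fluorouracil library, and 3 5-fluorouracil libraries lay below every paclitaxel one. The difference was 1.37 ± 0.29 (2.59-fold, 95% confidence interval 1.73 to 3.89; limma, adjusted p = 0.0282). Sbno2 was not in the list but was called, at 0.79 ± 0.17 (adjusted p = 0.0431). Its paclitaxel values ran from 3.78 through 4.87 to 5.77 and its 5-fluorouracil values from 3.24 through 3.95 to 4.76.

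Serpina3n, an acute-phase inhibitor of serine proteases, ran from 3.69 through 4.93 to 6.65 with paclitaxel and from 1.87 through 3.40 to 5.11 with 5-fluorouracil. All 13 paclitaxel libraries exceeded the 5-fluorouracil mean of their sex, with a difference of 1.44 ± 0.33 (adjusted p = 0.0495 by limma). Serpina3m differed by 1.97 ± 0.43 (0.0392), but the Serpina3 genes are close copies and reads shared between them make the separate values uncertain. Lbp, which binds bacterial lipopolysaccharide, ran from 3.70 through 4.73 to 6.32 with paclitaxel and from 2.49 through 3.47 to 4.72 with 5-fluorouracil, a difference of 1.13 ± 0.26 (adjusted p = 0.0495). Of its paclitaxel libraries, 7 lay above every 5-fluorouracil library. In the 29 fits that each left out 1 library, Lbp was called in 10, Serpina3n in 11, and Serpina3m and Sbno2 in 14. Socs3 was called in 19 of these fits and Stat3 in all 29.

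The responsive genes Lcn2, Mt1, Mt2 and Junb were not called. Lcn2, the iron-binding acute-phase protein lipocalin-2, ran from -0.07 through 2.75 to 6.03 with paclitaxel and from -0.07 through 2.20 to 4.03 with 5-fluorouracil, so the arms began at the same level. The difference was 1.11 (95% confidence interval 0.245 to 1.97; limma, adjusted p = 0.345). The metallothioneins Mt1 and Mt2, which bind zinc and are partly similar in sequence, differed by 1.47 (adjusted p = 0.140) and 1.84 (0.112). Junb, an AP-1 subunit, differed by 1.14 (0.355). Among libraries of low GC slope only, Mt1, Mt2 and Junb differed by 0.90, 1.31 and 0.38. Without the 12 libraries of high GC slope the median of the STAT3 and acute-phase list was 0.43 with 0 called, and with depth as a covariate it was 0.58 with 0 called. The neutrophil and macrophage marker sums given above were also higher in the paclitaxel arm, and their part in the values of this list was not tested.

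**Figure D3:**
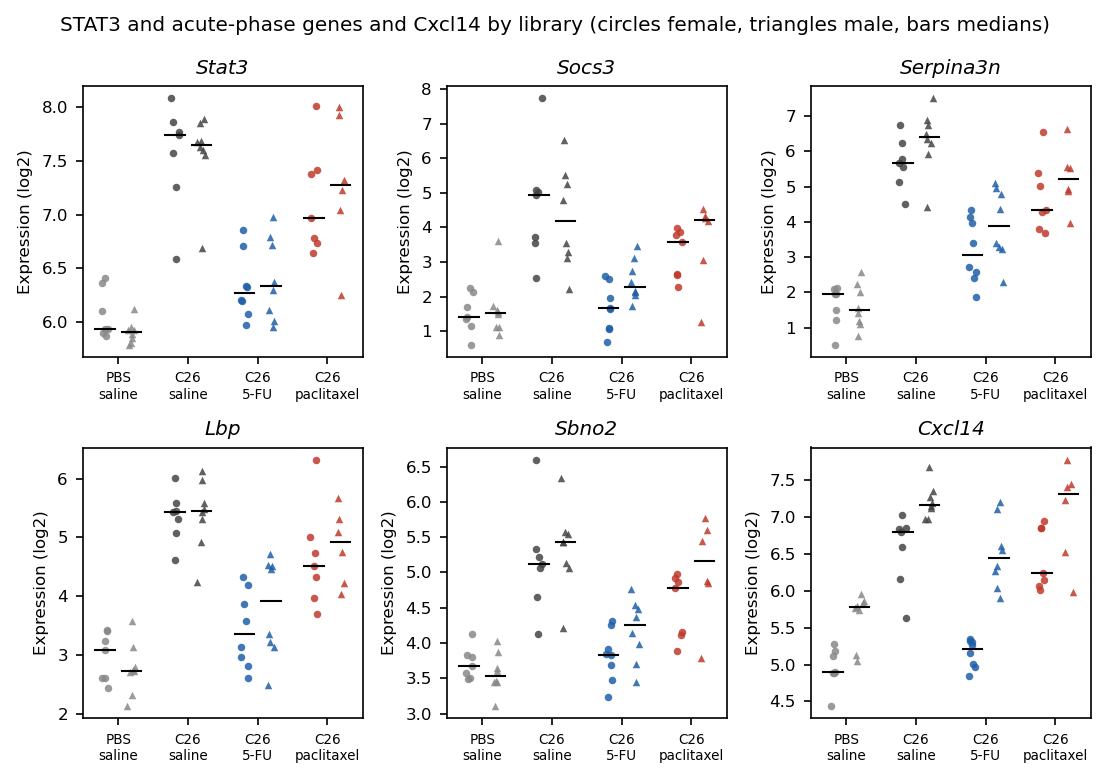
Each panel gives the deposited log2 expression of Stat3, Socs3, Serpina3n, Lbp, Sbno2 or Cxcl14 in every library of PBS saline, C26 saline, C26 5-fluorouracil (5-FU) and C26 paclitaxel mice, with females as circles, males as triangles and a bar at each group's median. Median Stat3 expression was 5.93 in PBS, 6.31 in 5-fluorouracil, 7.23 in paclitaxel and 7.68 in C26 saline libraries.

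In the endothelial list and in that of fibro-adipogenic progenitors 1 gene each was called. Ackr1, the chemokine-binding receptor of venular endothelium, had the smallest p of all genes and was the 1 called member of 29 measured endothelial genes, whose median was 0.17. It ran from 1.88 through 2.73 to 3.68 with paclitaxel and from 1.39 through 1.82 to 2.62 with 5-fluorouracil, and 8 paclitaxel libraries lay above every 5-fluorouracil library. The difference was 0.91 ± 0.15 (1.88-fold, 95% confidence interval 1.53 to 2.32; limma, adjusted p = 0.0106). Of the 29 endothelial genes, 21 had a positive and 8 a negative difference, the lowest -0.26. At an unadjusted p under 0.05, 5 were higher and 0 lower. Selp, the P-selectin of activated endothelium, differed by 1.08 (adjusted p = 0.056) and Plvap, a diaphragm protein of fenestrae and caveolae, by 0.76 (0.0517), both just outside the threshold. Outside the list, Ace, the angiotensin-converting enzyme of endothelium, was called at 0.53 ± 0.11 (adjusted p = 0.0231), Igfbp7, a matrix-bound protein of vessels, at 0.62 (0.0442), and Gpr182, a chemokine-scavenging receptor of endothelium, at 0.77 (0.0442).

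Cxcl14 ran from 5.98 through 6.84 to 7.77 with paclitaxel and from 4.85 through 5.62 to 7.20 with 5-fluorouracil. Of the 16 5-fluorouracil libraries, 9 lay below every paclitaxel library. The difference was 0.94 ± 0.17 (1.92-fold, 95% confidence interval 1.51 to 2.44; limma, adjusted p = 0.0157). It was the only called member of the 18 genes of fibro-adipogenic progenitors, the connective-tissue cells of muscle, and of the 21 of NF-kB and inflammation. The 18 fibro-adipogenic genes had a median of 0.23, with 14 positive and 4 negative, the lowest -0.755. At an unadjusted p under 0.05, 4 were higher and 0 lower. Among them Ly6a, the progenitor antigen Sca-1, differed by 0.58 (adjusted p = 0.051) and Pi16, a marker of adventitial fibroblasts, by 0.76 (0.0694). Collagen and matrix genes had 31 of 35 members with a positive difference, at a median of 0.33, and 15 with an unadjusted p under 0.05, but 0 were called. Col3a1, a fibrillar collagen, differed by 0.95 (0.0703) and Col4a1, a basement membrane collagen, by 0.44 (0.116). The summed level of the 29 endothelial markers overlapped between paclitaxel (1555 to 2643, median 1852) and 5-fluorouracil (1376 to 2254, median 1718).

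The remaining called genes belong to no list and were mostly named after their values had been seen. Sting1, the adaptor that answers cytosolic cyclic dinucleotides, ran from 1.38 through 2.25 to 2.90 with paclitaxel and from 0.32 through 1.27 to 2.00 with 5-fluorouracil. Here 10 of the 16 5-fluorouracil libraries lay below every paclitaxel library, and the difference was 0.97 ± 0.17 (limma, adjusted p = 0.0157). The interferon response list had a median of -0.16, with 37 of 48 members negative, 7 lower at an unadjusted p under 0.05 and 0 called. Without the 12 libraries of high GC slope that median was -0.02, with 21 of 48 positive. Xaf1 differed by -0.62 (adjusted p = 0.175) and Ifit1 by -0.75 (0.276).

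Atp9a, a lipid flippase of endosomes, differed by 1.00 ± 0.19 (limma, adjusted p = 0.0186), with 9 paclitaxel libraries above every 5-fluorouracil library, and Lgi2, a secreted leucine-rich repeat protein, by 0.79 ± 0.16 (0.0257). Scgb3a1, a secretoglobin, differed by 2.02 ± 0.44 and Nxpe5 by 1.67 ± 0.34. Ifitm1 (0.92), an interferon-induced membrane protein, Fxyd5 (0.61), a regulator of the sodium pump, and Cnrip1 (0.56) were also called, as was Tpm3-rs7 (0.30), a copy of a tropomyosin gene whose reads may be shared with its parent.

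Prokr1, a receptor for prokineticins, was the gene called lower with paclitaxel. It ran from -3.88 through -2.26 to -0.44 with paclitaxel and from -1.87 through -0.86 to 0.44 with 5-fluorouracil, and 12 of the 13 paclitaxel libraries lay at or below the 5-fluorouracil mean of their sex. The difference was -1.34 ± 0.31 (0.395-fold, 95% confidence interval 0.255 to 0.612; limma, adjusted p = 0.0495). It was a gene of low expression and was called in 7 of the 29 fits that each left out 1 library.

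Lists tied to the 2 drugs' own targets were read for their medians and intervals, since with 0.318% of all genes called a list of this size can hold 0 calls like any other. Of the 58 tubulins and microtubule proteins, 0 were called, 1 had an unadjusted p under 0.05, and the median was 0.02. Tubb2a, a beta-tubulin, differed by 0.05 (95% confidence interval -0.36 to 0.46) and Tubb6, a beta-tubulin of regenerating muscle, by 0.36 (-0.04 to 0.75). The 30 mitotic and cell-cycle genes had a median of 0.08, with 5 higher and 3 lower at an unadjusted p under 0.05. Top2a, the topoisomerase of dividing cells, differed by 1.20 (adjusted p = 0.352) and Tpx2, a spindle protein, by -0.57 (0.187).

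For 5-fluorouracil, 46 genes of pyrimidine and folate metabolism had a median of 0.00, with 3 higher and 4 lower at an unadjusted p under 0.05 and 0 called. Tyms, the thymidylate synthase that 5-fluorouracil inhibits, ran from -1.93 through -1.09 to -0.20 with paclitaxel and from -5.20 through -1.47 to -0.43 with 5-fluorouracil, where 1 library had no count. The arms overlapped, and the difference was 0.68 (95% confidence interval 0.011 to 1.35; limma, adjusted p = 0.498). Upp1, the uridine phosphorylase that activates the drug, differed by 0.46 (-0.34 to 1.25). The 37 genes of p53 and DNA damage had a median of -0.06 and 0 called. Cdkn1a, the cell-cycle inhibitor p21, differed by 0.16 (-0.57 to 0.89) and Mdm2, the ligase that degrades p53, by -0.18 (-0.34 to -0.03; adjusted p = 0.411).

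No gene of the muscle wasting lists was called between the drugs. Fbxo32, the ubiquitin ligase atrogin-1, ran from 6.60 through 8.90 to 11.08 with paclitaxel and from 6.68 through 8.09 to 10.16 with 5-fluorouracil. Trim63, the ligase MuRF1, ran from 7.02 through 8.24 to 12.02 and from 7.10 through 8.37 to 10.47. The arms covered nearly the same span in both genes, with differences of 0.26 (95% confidence interval -0.40 to 0.91) and 0.10 (-0.65 to 0.86). Both intervals reach well below and well above 0. Reference medians were 9.93 and 9.92 in C26 saline and 7.94 and 7.89 in PBS libraries. Of the 28 genes of ubiquitin ligases and atrophy 0 were called, as were 0 of 32 FoxO and glucocorticoid targets. With 0.318% of all genes called, lists of this size can hold 0 calls like any other. At an unadjusted p under 0.05, 3 of the 28 were higher and 4 lower, against 5.86% and 3.97% of all genes. The ligase genes Trim55 and Fbxo40 differed by -0.31 and -0.30 (limma, adjusted p = 0.173 and 0.240). Foxo1, a transcription factor of the atrophy programme, differed by -0.17 (-0.80 to 0.46), Pdk4, which limits glucose oxidation, by 0.03 (-0.83 to 0.88), Mstn, which encodes myostatin, by -0.27 (-0.64 to 0.10) and Eda2r, a receptor of the tumour necrosis factor family, by -0.09 (-0.56 to 0.37).

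Because paclitaxel is known to injure peripheral nerves, the response to denervation was read as well. The 34 neuromuscular and denervation genes had a median of 0.08, and 0 were called, as against 0.318% of all genes. Runx1, a transcription factor that denervated muscle expresses and that myeloid cells also express, differed by 0.71 (95% confidence interval 0.343 to 1.08; limma, adjusted p = 0.0731). Chrna1, the alpha subunit of the acetylcholine receptor, differed by 0.21 (0.471), Myog, the myogenic factor myogenin, by -0.15 (0.905) and Gadd45a by 0.10 (0.847).

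No gene of the fibre and energy lists was called, which with 0.318% of all genes called says nothing about them as a group. Fast-fibre genes had 16 of 20 members negative, a median of -0.16 and 6 lower at an unadjusted p under 0.05, but quantile normalization brought the median to -0.06 with 8 of 20 positive. Pooled over the sexes, slow-fibre genes went the other way, with 15 of 17 positive, a median of 0.13 and 0 at an unadjusted p under 0.05. Their median was -0.09 in females, with 2 of 17 positive, and 0.38 in males, with 15 of 17 positive. That difference was not tested for the list. Without the 12 libraries of high GC slope their pooled median was 0.05, with 9 of 17 positive. Tricarboxylic acid cycle genes had 23 of 24 negative, a median of -0.18 and 9 lower at an unadjusted p under 0.05. Pvalb, the calcium buffer parvalbumin of fast fibres, ran from 11.13 through 11.73 to 12.91 with paclitaxel and from 11.74 through 12.59 to 12.81 with 5-fluorouracil, and differed by -0.55 (adjusted p = 0.124 by limma). Casq1, the calcium store protein calsequestrin, differed by -0.42 (0.412), Idh3a, a subunit of isocitrate dehydrogenase, by -0.24 (0.391), Myh4, the fastest myosin heavy chain, by -0.20 (0.668) and Ppargc1a, the coactivator PGC-1 alpha, by -0.51 (0.672). All 13 mitochondrially encoded genes had a negative difference, at a median of -0.48. That median was -0.07 once the GC slope entered as a covariate and -0.11 without the 12 libraries of high slope. The 77 nuclear genes of oxidative phosphorylation had a median of -0.07, with 21 positive, and 0 were called. Adjusting for GC slope moved their median to -0.13, with 0 positive. Dropping the high-slope libraries gave -0.14, with 2 positive, and adjusting for depth gave -0.15, with 0 positive. Under quantile normalization it was -0.06, with 23 positive. The tricarboxylic acid cycle median was -0.17 in each of the 2 GC settings, with 0 positive.

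**Figure D4:**
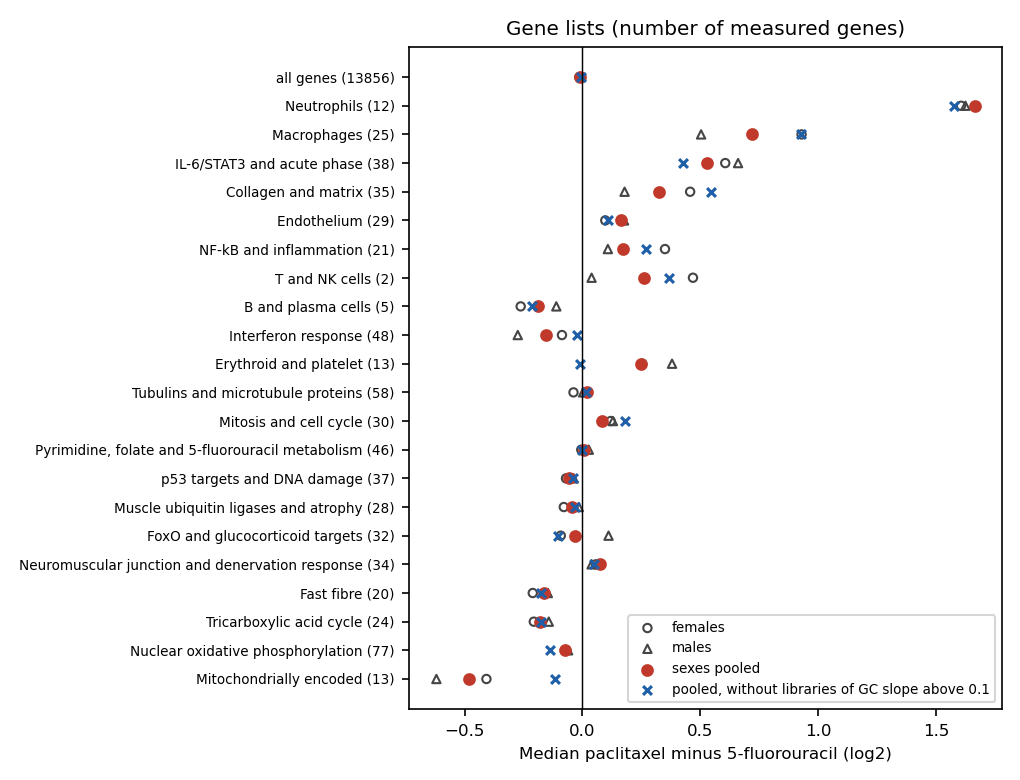
Medians of the paclitaxel minus 5-fluorouracil difference (log2) for 21 gene lists and for all genes, with the number of measured genes in parentheses. Filled circles pool the sexes, open circles are females, open triangles males, and crosses the pooled value without libraries above a GC slope of 0.1. Neutrophil genes lie at 1.67, macrophage genes at 0.72 and STAT3 and acute-phase genes at 0.53, while all genes lie at -0.01.

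Within females alone, limma called 5 genes (0.0361%), all higher with paclitaxel. They were Ackr1 (1.06), Cxcl14 (1.29), Lgi2 (1.11), Ly6a (0.89) and Aldh1a2 (1.61), the last an enzyme of retinoic acid synthesis. Female Cxcl14 values ran from 6.01 to 6.94 with paclitaxel and from 4.85 to 5.35 with 5-fluorouracil, so the arms did not overlap in this sex. Male values ran from 5.98 to 7.77 and from 5.90 to 7.20 and overlapped. In females 725 genes (5.23%) had an unadjusted p under 0.05. Within males 0 genes (0.0%) were called and 617 (4.45%) had an unadjusted p under 0.05, with Il17ra (0.60 ± 0.14, adjusted p = 0.360 by limma) among the 5 smallest.

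The difference between the sexes was tested directly as an interaction, which called 0 genes (0.0%), with 155 (1.12%) at an unadjusted p under 0.05. The 43 genes called higher were positive in both sexes, with a median of 0.95 in females and 0.88 in males, and 32 of them had the larger value in females. The choice of these genes on the pooled difference favours genes that are positive in both. Cxcl14 had the smallest interaction p among the 44 (male minus female -0.73, 95% confidence interval -1.38 to -0.07; unadjusted p = 0.0313, limma adjusted p = 1.0). Aldh1a2 was 1.61 in females against 0.10 in males, with an interaction adjusted p = 1.0 by limma. The predicted gene Gm11847, at low expression, had the smallest interaction p of all genes (1.34 in females, -3.09 in males, adjusted p = 0.470).

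**Figure D5:**
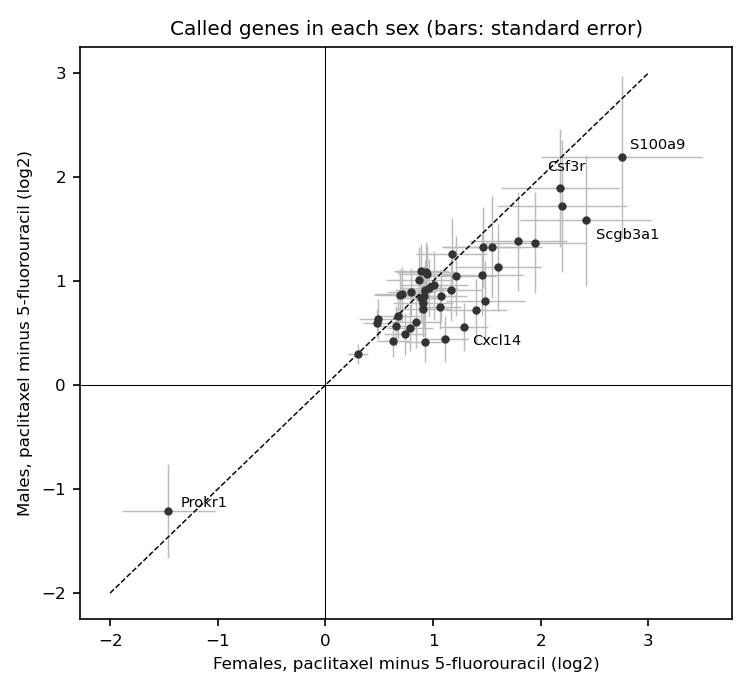
Each point is 1 of the 44 called genes, with the paclitaxel minus 5-fluorouracil difference (log2) in females on the horizontal axis and in males on the vertical axis, and bars of 1 standard error. The dashed line marks equal values. All 43 genes called higher lie above 0 in both sexes, and Prokr1 lies below 0 in both.

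The levels of the called genes were set beside the saline groups as a description. For 40 of the 43 genes higher with paclitaxel, the paclitaxel median lay nearer the C26 saline than the PBS median while the 5-fluorouracil median lay nearer the PBS median. Choosing these genes for a higher level with paclitaxel favours that order where C26 saline lies above PBS, as in 42 of the 43. No share over all genes was set beside it. Csf3r had medians of -0.04 in PBS, 0.09 in 5-fluorouracil, 1.89 in paclitaxel and 2.50 in C26 saline libraries, and Socs3 of 1.50, 2.09, 3.79 and 4.80 in the same order. Prokr1 had the reverse order, at -0.67, -0.86, -2.26 and -2.14, with paclitaxel lowest. In 13 of the 43 genes the paclitaxel median exceeded that of C26 saline, as for Atp9a (6.66 against 6.19) and Spi1 (1.53 against 1.26), and in 8 the 5-fluorouracil median was below that of PBS. Cnrip1 was the exception to the tumour's direction, with a C26 saline median of 0.67 and a PBS median of 0.87. These positions were not tested.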

How the data were processed

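Gene expression in gastrocnemius muscle was measured by RNA sequencing with 150-bp paired reads, per the labels' protocols. The authors deposited 1 log2 expression value for each of 13856 genes in 74 libraries. Per the submitters' processing notes, which give no versions, the tools were FastQC, fastp, MultiQC, Salmon, limma and edgeR and the build was GRCm39 (mm39). How genes were filtered and libraries scaled is not given in the sources used here. Judged by their spacing, the deposited log2 values are those of an estimated count plus 0.5 over a scaled library size. Solving for that size gave 15.3 to 32.0 M counts in the 29 libraries, with 85.5 to 90.0% of values within 0.02 of a whole number. No count test was run on these estimates. Shallower libraries place low genes less precisely.

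All genes were fitted with sex and drug as terms in limma 3.58.1 under R 4.3.3, with empirical Bayes moderation along a trend. For values within a sex and for the interaction, the means of 4 groups were fitted. Tests were two-sided, p values were adjusted over all genes by Benjamini-Hochberg, and the call was an adjusted p under 0.05. The labels do not say how libraries were processed together, so a p value here reflects only the spread among these libraries, which may be technical. The script was tested on simulated data. No 2 libraries of a group agreed within counting noise (closest pair, mean chi-square 19.1 per gene). A female library whose title names saline and whose treatment label names 5-fluorouracil was left out of every comparison.

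The genes named were the 10 largest called differences in each direction at a mean log2 value of at least 1, the 10 smallest p values, up to 4 members of each of 42 lists with the smallest p, 24 genes fixed for their roles, the 5 smallest p values in each sex and of the interaction, and the cell type markers. The text gives those that its comparisons turn on, and some genes of the rule are not reported here. Other called genes, and Cxcr2, were named after their values had been seen. The comparison, lists and rule were chosen with earlier results of these data known. The GC slope is the slope of a library's gene deviations on standardised transcript GC content over 10637 genes, from GENCODE vM21. Marker sums add back-transformed values (2 to the power of the log2 value). Alternatives were quantile normalization, filters on low genes, all groups at once, quality weights, a replicate block, GC slope or mitochondrial share as covariates, libraries of low GC slope only, a robust fit without a trend, each library left out and, added after the data were seen, depth as a covariate. Promoters are from RefSeq (GRCm38.p6).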

Additional observations from a re-analysis of the deposited data

Results flagged for a closer look

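Of 444 sets of values (named genes and library measures within each of the 4 groups), 15 held a library far from the rest of its group by Dixon's criterion at the 95% level. Chance flags about 1 in 20 such sets. All values are log2 expression, and no explanation was tested.

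Among females given 5-fluorouracil, replicate 1 stood apart for 3 genes. Its Fbxo32 value was 9.64 against 6.68 to 7.74 in the others, its Myog value 5.08 against 2.43 to 3.60, and its Cd68 value 0.34 against 1.41 to 2.27. Without this library 35 of the 44 called genes remained called. In the same group replicate 8 had no count for Serpina3m (-5.20 against -3.04 to -1.29) or Tyms (-5.20 against -1.66 to -0.43).

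Among females given paclitaxel, replicate 7 had the lowest Prokr1 value (-3.73 against -2.45 to -1.63), replicate 4 the lowest Pira1 value (-1.02 against 0.26 to 0.98) and replicate 3 the lowest Ighm value (-0.33 against 1.07 to 1.74).

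Among males given 5-fluorouracil, replicate 5 had no count for Scgb3a1 (-5.71 against -3.09 to -0.88), replicate 2 was low for Ncf4 (-1.45 against -0.35 to 0.11) and replicate 7 for Pvalb (11.7 against 12.4 to 12.8). Among males given paclitaxel, replicate 4 was low for Fxyd5 (2.69 against 3.88 to 4.37) and Bcl3, a regulator of NF-kB (0.22 against 1.79 to 2.61). Replicate 5 was high for Ncf4 (1.48 against 0.40 to 0.79), and replicate 2 was low for Adgre1, the macrophage antigen F4/80 (-0.34 against 0.71 to 1.26).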

How the results depend on the processing

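The count of 44 called genes was 15 and 3 with means of at least 1 and 3, 166 with all groups fitted at once, 263 with quality weights, 109 with the GC slope and 80 with the mitochondrial share as covariates, 11 without libraries above a GC slope of 0.1, and 6 with depth as a covariate. Quantile normalization gave 35 and a robust fit without a trend 44. Leaving out each of the 29 libraries gave 11 to 125 in the pooled comparison, 0 to 10 in females, 0 to 1 in males and 0 for the interaction. The 5 calls in females became 1 at a mean of at least 3, 26 with all groups, 294 with quality weights, 20 with the GC slope, 16 with the mitochondrial share, 1 without high-slope libraries, 0 with the robust fit and 0 with depth. The 0 calls in males became 2 with all groups and 2 without high-slope libraries, and the 0 of the interaction became 1 without high-slope libraries. That last setting lacks 4 of the 6 male paclitaxel libraries. The cause of these changes was not tested. The filters on low genes left 25 and 13 of the 44 genes to test, of which 15 and 3 were still called. No named gene called in the comparison changed sign.

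The replicate block, with the number within a sex as the block, gave 54 calls in the pooled comparison, of which 30 were among the 44, and 0 in females, males and the interaction. The labels do not say what a number marks. Same-numbered libraries correlated from -0.47 to 0.53, with 9 of 13 pairs over 0.1, and 1 of 13 paclitaxel libraries correlated best with its own number. Depth limits what can be said of genes with a mean log2 value below 1, which made up 19 of the 44.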

Other observations

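The female library whose title and treatment label disagree was in no comparison. Its log2 values were 7.35 for Stat3, 3.87 for Socs3, 4.62 for Serpina3n, 1.88 for Csf3r, 1.10 for S100a9, 3.04 for Ackr1, 6.13 for Cxcl14, -2.65 for Prokr1 and 2.43 for Ighm.

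The 14 C26 libraries given cisplatin, a drug that crosslinks DNA, were also outside the comparison and are shown as values. Their Stat3 expression ran from 6.05 through a median of 6.32 to 7.06, their Socs3 expression from 0.73 through 2.06 to 3.64, and their Serpina3n expression from 2.52 through 3.29 to 4.74. Csf3r had a cisplatin median of 0.60, Ackr1 of 2.10, Cxcl14 of 5.75 and Prokr1 of -1.07.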
